A study of Mus musculus with 8 samples.

Results

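Mast cells, basophils and eosinophils are effector cells of allergy and of the response to parasites, and they arise from progenitors that also give rise to neutrophils and monocytes. The open chromatin around 9 genes of these lineages is described here in leukemic granulocyte-macrophage progenitors (L-GMPs) from mice with MLL-AF9 acute myeloid leukemia. The genes are Mitf, Fcer1a, Ms4a2, Il1rl1, Il5ra, Cpa3, Hdc, Prg2 and Epx, 9 of 21631 protein-coding genes in the annotation. They were chosen by name as genes of these lineages, with earlier results of these data known. Every ATAC-seq peak whose summit lay inside one of these genes or within 50 kb of it was taken, and overlapping peaks of the 8 libraries were merged into regions. This gave 132 of 138385 regions.

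MITF, a transcription factor of mast cells, acts there together with the stem cell factor receptor KIT and the factor GATA2. The IgE receptor of mast cells and basophils has an α chain (Fcer1a), a β chain (Ms4a2) and a γ chain (Fcer1g), and its crosslinking by antigen releases stored histamine and proteases. Eosinophils mature under interleukin-5 and store cationic proteins, among them major basic protein (Prg2) and eosinophil peroxidase (Epx). ATAC-seq reads out open chromatin as sites where a transposase can insert adapters, and it measures neither RNA nor protein.

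All 8 libraries came from MLL-AF9 leukemic mice and from bone marrow cells sorted for CD34, CD16/32 and c-Kit and against Sca-1 and lineage markers, with about 5000 cells in each reaction. KO 1 and KO 2 were labelled Dek fl/fl with MX1-Cre, a recombinase under an interferon-inducible promoter, and KO 3 was labelled Dek fl/fl with Tie2-Cre, which acts in endothelium and blood cells. 4S-A 1 and 4S-A 2 carried alanine in place of serines 306, 308, 311 and 312 of DEK, a chromatin-binding protein. FL 1 and FL 2 were labelled Dek fl/fl, and FL 3 was labelled Dek+/+. The genotype labels of the FL and 4S-A libraries name no Cre. KO 1, KO 2, FL 1 and FL 2 form the Mx1-Cre set, and the other 4 libraries form the Tie2-Cre set. The treatment protocol given for each library names the Cre of its set. The labels do not say which stretch of Dek is removed, nor whether libraries came from separate animals, so comparisons measure the spread between libraries only. The design text of the series names the Tie2-Cre knockout alone, so the Mx1-Cre set rests on the sample labels. Inside the lists, peaks of KO 1 carry the name Ko_2, those of KO 2 the name Ko_3 and those of the FL libraries the name WT, and the labels were followed.

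Lists held 56245, 74026 and 93041 peaks in KO libraries, 104605 and 94725 in 4S-A libraries, and 51510, 54887 and 91586 in FL libraries. Read depth is unknown, and the 4 lists of the Tie2-Cre set were all longer than the 4 of the Mx1-Cre set. An open region in the Dek gene itself stood between percentiles 65.7 and 85.4 in KO, 87.7 and 89.2 in 4S-A, and 75.6 and 82.2 in FL libraries, so these lists do not check the deletion. All 9 genes of a marker list for the sorted progenitor stage that have an annotated start had a peak there in all 8 libraries, Cebpa between percentiles 89.4 and 93.3. Lymphoid markers had a peak at 0 or 1 of 10 starts per library and erythroid markers at 1 or 2 of 9. Endothelial markers had one at 2, 3 and 2 of 5 starts in KO, at 3 in each 4S-A library, and at 0, 0 and 2 in FL libraries. In a sorted bulk sample a weak peak in every cell and a strong peak in few cells cannot be told apart.

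The strength of a peak is given as its percentile of −log10 q inside its own library's list, with 100 as the strongest. Values within a group follow the library numbers, and "no peak" marks a library without a peak in that region. The lists differ in length, which shifts percentiles. An order between libraries is described only with its outcome in lists cut to their 51510 strongest peaks (lists of equal length). For the gene Mcpt8, below, that outcome was not examined. A gene start counted as open where a peak overlapped the stretch from 250 bases before to 50 bases after it. Of the 9 genes, 8 had an annotated start in the RefSeq table (GRCm38.p6, the assembly also called mm10) and together had 11 starts. Each library had a peak at the start of 2 of these 8 genes, that is 25%, against 53.1% to 59.2% of 17274 protein-coding genes with a start. The first start of Mitf was open in all 8 libraries, that of Hdc in 7 and that of Il5ra in KO 1 alone. No library had a peak at the annotated starts of Cpa3, Epx, Fcer1a, Il1rl1 or Ms4a2. The 5′ end of the Il1rl1 gene is not among its annotated starts and is not counted in the 25%. A region over it was open in all 8 libraries, at 52.3 to 91.4.

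The 250 bases before 5 of these starts are printed as examples: Mitf (first start) and Hdc were open, and Cpa3, Fcer1a and Ms4a2 were not. Other closed starts, among them those of Epx and Il1rl1, are not printed. Each is given on the strand of its gene, from RefSeq on GRCm38.p6. Capitals mark matches, on either strand, to AGATAA or TGATAA (letters bound by GATA factors), CATGTG or CACGTG (E-boxes of the kind MITF binds), TGTGGT (RUNX) and AGGAAG (ETS). Mitf lies at chr6:97806808-97807057 (+), Hdc at chr2:126618679-126618928 (−), Cpa3 at chr3:20242182-20242431 (−), Fcer1a at chr1:173227230-173227479 (−) and Ms4a2 at chr19:11623720-11623969 (−).
Mitf: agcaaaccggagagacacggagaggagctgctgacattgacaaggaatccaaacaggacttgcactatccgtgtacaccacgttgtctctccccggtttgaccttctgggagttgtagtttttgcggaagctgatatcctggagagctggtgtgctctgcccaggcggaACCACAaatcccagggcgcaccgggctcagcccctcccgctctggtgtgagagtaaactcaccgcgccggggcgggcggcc
Hdc: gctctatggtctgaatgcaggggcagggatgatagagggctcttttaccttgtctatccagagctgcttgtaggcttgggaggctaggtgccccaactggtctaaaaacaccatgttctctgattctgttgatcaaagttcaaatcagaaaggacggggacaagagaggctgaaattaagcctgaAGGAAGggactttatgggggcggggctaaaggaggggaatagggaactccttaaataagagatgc
Cpa3: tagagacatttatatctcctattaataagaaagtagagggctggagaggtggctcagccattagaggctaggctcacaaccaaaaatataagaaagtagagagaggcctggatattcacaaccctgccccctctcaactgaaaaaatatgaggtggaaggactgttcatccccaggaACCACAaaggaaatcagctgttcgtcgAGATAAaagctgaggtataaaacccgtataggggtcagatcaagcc
Fcer1a: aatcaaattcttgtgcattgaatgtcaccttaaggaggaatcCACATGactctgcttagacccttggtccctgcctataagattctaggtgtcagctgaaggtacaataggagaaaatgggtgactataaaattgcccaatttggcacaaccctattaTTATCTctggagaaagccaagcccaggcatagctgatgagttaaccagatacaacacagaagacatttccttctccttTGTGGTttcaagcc
Ms4a2: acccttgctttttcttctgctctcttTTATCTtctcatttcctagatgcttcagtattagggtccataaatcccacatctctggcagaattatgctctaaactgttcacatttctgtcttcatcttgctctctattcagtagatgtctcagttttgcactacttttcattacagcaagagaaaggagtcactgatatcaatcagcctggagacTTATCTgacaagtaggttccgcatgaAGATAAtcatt

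The open first start of Mitf held 1 RUNX match and no GATA match, and that of Hdc held 1 ETS match. In the closed stretch before Cpa3 a GATA match lay 46 bases before the start, and Ms4a2 held 3 GATA matches, the nearest 11 bases before its start. Fcer1a held 1 GATA, 1 E-box and 1 RUNX match. Over all 11 starts of the genes, 8 held a GATA match, against 14.5% of the 21045 starts in the table. The corresponding shares over all starts were 16.3% for the E-boxes, 12.2% for the RUNX letters and 28.7% for the ETS letters. Among the starts of these genes, Fcer1a alone held an E-box match and Hdc alone an ETS match. RUNX matches stood before the first start of Mitf, the starts of Cpa3 and Fcer1a, and the second start of Il1rl1. Among all starts, a GATA match stood in 7.26% of those with a peak in all 8 libraries, in 11.1% of those with a peak in some, and in 24.4% of those with none. Of the 8 starts of these genes with no peak in any library, 7 held one. These matches describe letters only, and binding was not measured.

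**Figure D1:**
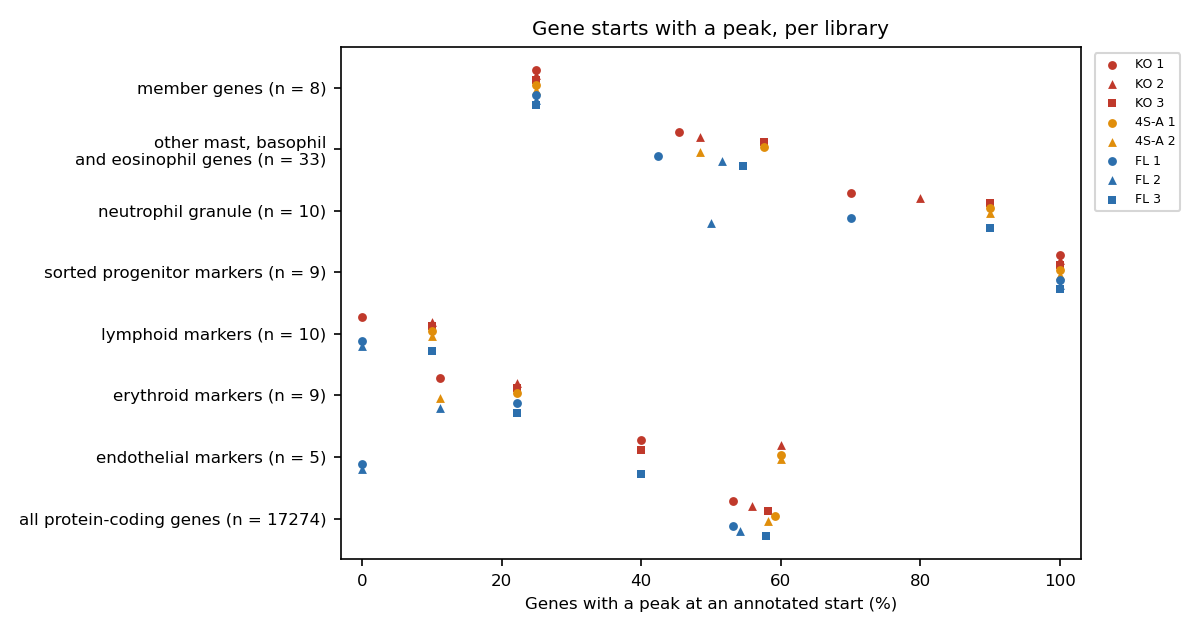
Share of genes with a peak at an annotated start (x axis, percent) for each gene list (y axis, n is the number of genes with a start), 1 point per library. The member genes sit at 25% in all 8 libraries, below the 53.1% to 59.2% of all protein-coding genes, and the sorted progenitor markers sit at 100%. The 5′ end of Il1rl1, open in all 8 libraries, is not an annotated start and is not counted.

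In a further list of mast cell, basophil and eosinophil genes, 14 to 19 of 33 starts per library had a peak, or 42.4% to 57.6%, against 53.1% to 59.2% of all genes. The difference from the 2 of 8 was not tested. In this list 12 starts had a peak in all 8 libraries, or 36.4%, against 49.6% of all genes with a start. These 12 included Kit at percentiles 85.4 to 90.3, Gata2 at 52.7 to 72.6, and the IgE receptor γ chain gene Fcer1g at 76.1 to 92.0. Il3ra, the interleukin-3 receptor α chain, stood at 77.4 to 89.0. Kit, Gata2, Fcer1g and Il3ra are also used outside the mast cell, basophil and eosinophil lineages. The 12 also included Il4 at 46.5 to 88.6, Hpgds at 0.757 to 78.7 and the eosinophil granule gene Prg3 at 56.7 to 87.8. The basophil protease gene Mcpt8 was open in every library as well, at 48.9, 58.0 and 87.5 in KO, 92.7 and 91.9 in 4S-A, and 15.9, 21.5 and 73.4 in FL libraries. KO and FL values overlapped, and both 4S-A values were above them in the full lists. The order of Mcpt8 values in lists of equal length was not examined. No library had a peak at 13 starts of this list, or 39.4%, close to the 37.5% of all genes with a start. Among these 13 were those of Gata1, of the mast cell protease genes Cma1, Mcpt1 and Mcpt4, and of the eotaxin receptor gene Ccr3. Neutrophil granule genes belong to the neutrophil fate of such progenitors. They had a peak at 7, 8 and 9 of 10 starts in KO, at 9 in each 4S-A library, and at 7, 5 and 9 in FL libraries. Camp, Ctsg, Elane, Mmp8 and Mpo were open in all 8.

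Mitf held 25 regions, 22 of them inside the gene (chr6:97807002-98021360, + strand), which spans 214359 bases. Its strongest region, chr6:97806728-97807698, covers the first start. It stood at 96.1, 97.1 and 99.3 in KO, 99.4 and 98.8 in 4S-A, and 98.8, 97.2 and 99.3 in FL libraries. It thus belonged to the strongest peaks of every library, with overlap between the groups. The authors' fold enrichment at its summit was 15.7, 16.0 and 18.4 in KO, 17.7 and 16.5 in 4S-A, and 19.2, 17.1 and 18.3 in FL libraries. Of the other regions, 7 were held by all 8 libraries and 4 by a single library. The region chr6:97995534-97996385 lay 4175 bases downstream of the third annotated start, the one nearest the end of the gene. It stood at 69.7, 82.5 and 93.5 in KO, 97.0 and 96.2 in 4S-A, and 63.9, 57.2 and 93.6 in FL libraries. The 4 libraries of the Tie2-Cre set were the 4 highest there, also in lists of equal length. A region near the first start and inside the gene, chr6:97820394-97821193, stood at 78.6, 81.7 and 77.5 in KO, 72.9 and 78.8 in 4S-A, and 79.1, 75.1 and 80.2 in FL libraries, and the groups overlapped. Close to the third start but not over it, the region chr6:97990573-97990841 stood at 19.7 in KO 3 and 24.6 in FL 3, and neither 4S-A library nor the 4 libraries of the Mx1-Cre set held it.

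**Figure D2:**
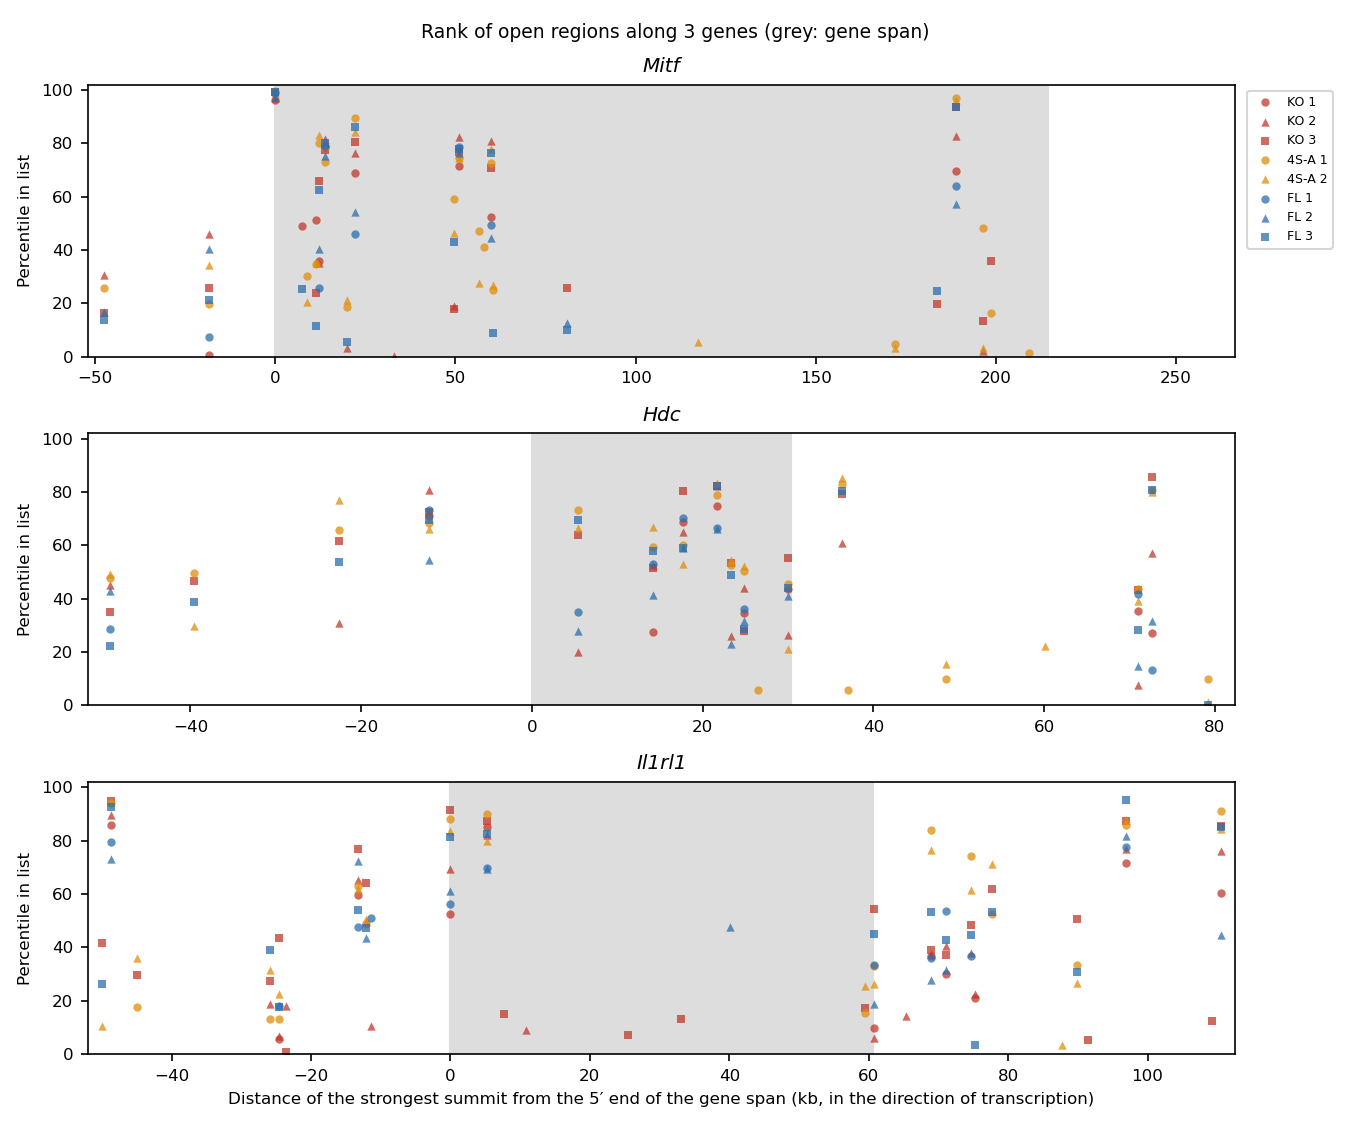
Percentile of −log10 q in each library's list (y axis) against the distance of the strongest summit from the 5′ end of the gene (x axis, kb in the direction of transcription) for Mitf, Hdc and Il1rl1, with 1 point per region and library and the gene in grey. The Mitf points at 0 kb lie between 96.1 and 99.4 in all 8 libraries, Hdc has regions throughout the gene, and the middle of Il1rl1 has few points.

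Fcer1a, which encodes the IgE-binding α chain, had no peak in any of the 8 libraries inside the gene (chr1:173221269-173227232, − strand) or within 50 kb of it. The first peak beyond lay 105174 bases away. Of all 21631 protein-coding genes, 2367 (10.9%) likewise had no region in such a window. Ms4a2, the gene for the β chain (chr19:11615517-11623790, − strand), had 14 regions in its window and 1 inside the gene. That region, chr19:11618467-11619124, stood at 71.1 in 4S-A 1 and 37.0 in 4S-A 2, and no KO or FL library held it. The strongest region of the window, chr19:11640633-11641295, lay 92 bases from the neighbouring gene Ms4a3 and outside Ms4a2. It stood at 90.3, 87.5 and 93.1 in KO, 96.3 and 93.0 in 4S-A, and 77.8, 69.4 and 95.7 in FL libraries. FL 1 and FL 2 were the lowest there, also in lists of equal length. The γ chain gene, given above, had an open start in every library. At their annotated starts, then, the receptor gene used also by other myeloid cells was open and the genes for its α and β chains were not.

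Il1rl1, which encodes the interleukin-33 receptor ST2 (chr1:40404864-40465418, + strand), had 30 regions in its window, the most of the 9 genes, with 7 inside the gene. The region chr1:40404440-40405176 covers the 5′ end of the gene, which is not one of its 2 annotated starts in the table. It stood at 52.3, 69.3 and 91.4 in KO, 88.1 and 83.5 in 4S-A, and 56.4, 61.1 and 81.5 in FL libraries. A region further into the gene, chr1:40409869-40410482, stood at 85.3, 82.2 and 87.3 in KO, 90.0 and 79.8 in 4S-A, and 69.8, 69.2 and 82.4 in FL libraries. Both were open in every library, whereas the region chr1:40430247-40430520, within 1 kb of an annotated start, was held by KO 3 alone, at 7.04. Of the 7 regions inside the gene, chr1:40409869-40410482 was the 1 that all 8 libraries held. Many regions of the window belong to its neighbours of the same receptor family, such as chr1:40355408-40356492 near Il1rl2, never below 73.1, and chr1:40501030-40502379, 908 bases from Il18r1, at 71.5 to 95.2.

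Il5ra, the interleukin-5 receptor α chain gene (chr6:106710375-106749037, − strand), had 9 regions in its window and 1 inside the gene. At its start KO 1 alone had a peak (chr6:106748882-106749278), at 3.98, near the bottom of its list. The region chr6:106750229-106750699, 1478 bases upstream of the start, stood at 44.8, 66.1 and 25.7 in KO libraries, with no peak in 4S-A libraries, and at 54.2, 38.2 and 33.6 in FL libraries. All 6 KO and FL libraries held it and neither 4S-A library did. The strongest region of the window, chr6:106768739-106769988, lay near Trnt1 and ranged over 90.9 to 99.5.

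Cpa3 encodes carboxypeptidase A3, a protease of mast cell granules (chr3:20215616-20242209, − strand). Its window had 6 regions, none of them held by all 8 libraries, and it held 1, 3 and 5 in KO, 6 and 6 in 4S-A, and 1, 1 and 5 in FL libraries. Each library of the Mx1-Cre set, whose lists were shorter, held fewer than each of the Tie2-Cre set. The region chr3:20243795-20244354, 1907 bases beyond the 5′ end of the gene, gave no peak, 30.7 and 56.1 in KO, 10.0 and 5.60 in 4S-A, and 72.3, 68.1 and 59.4 in FL libraries. The 3 FL values were the highest, also in lists of equal length, where KO 1 and both 4S-A libraries had no peak. The region chr3:20239688-20240096 inside the gene gave no peak, no peak and 59.8 in KO, 55.8 and 73.1 in 4S-A, and no peak, no peak and 40.5 in FL libraries. The 4 libraries with a peak were those of the Tie2-Cre set, and in lists of equal length FL 3 had none.

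Hdc encodes histidine decarboxylase, which makes histamine (chr2:126593659-126624025, − strand). It had 19 regions in its window and 8 inside the gene, 26.3 per 100 kb. Of the 19, 7 were held by all 8 libraries. The strongest, chr2:126601938-126602822, stood at 74.8, 82.3 and 82.0 in KO, 78.8 and 83.3 in 4S-A, and 66.6, 66.2 and 82.2 in FL libraries. The groups overlapped, and in lists of equal length 4S-A 1 was the lowest, at 57.0, below FL 1 at 66.6 and FL 2 at 63.9. The region over the start, chr2:126618417-126619612, gave no peak, 20.1 and 63.7 in KO, 73.1 and 66.5 in 4S-A, and 35.1, 27.8 and 69.3 in FL libraries. In lists of equal length KO 1 and KO 2 had no peak there, and KO 3 stood at 34.4, below FL 1 at 35.1.

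Prg2, major basic protein, is a short gene (chr2:84980461-84983632) with no region inside it and 15 in its window. The region that touches one end of the gene, chr2:84980245-84980530, was weak and gave no peak, no peak and 21.7 in KO, 11.2 and no peak in 4S-A, and no peak, no peak and 15.5 in FL libraries. A region 4679 bases outside the gene, chr2:84975224-84976230, gave no peak, no peak and 69.7 in KO, 70.6 and 78.2 in 4S-A, and no peak, 2.05 and 72.4 in FL libraries. All 4 libraries of the Tie2-Cre set and 1 of the Mx1-Cre set held it. The strongest region of the window, chr2:84936284-84936965 near Slc43a3, ranged over 85.9 to 93.5. The region at the start of the neighbouring eosinophil granule gene Prg3, chr2:84987747-84988651, stood at 75.7, 83.8 and 80.9 in KO, 87.8 and 85.0 in 4S-A, and 56.7, 69.5 and 84.5 in FL libraries. It was open in every library. In the full lists both 4S-A values were the highest. In lists of equal length the groups overlapped, with KO 2 at 76.7 above 4S-A 1 at 75.2 and 4S-A 2 at 72.4.

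Epx (chr11:87863997-87875536, − strand) had 14 regions in its window and 3 inside the gene. The region chr11:87874780-87875144, 545 bases downstream of the start, gave no peak, 39.0 and 52.9 in KO, 39.6 and 42.6 in 4S-A, and no peak, no peak and 22.9 in FL libraries. Neither the KO 1 library nor FL 1 or FL 2 held it. Upstream of the start, chr11:87881696-87882298 stood at 42.2, 52.7 and 76.4 in KO, 84.3 and 76.9 in 4S-A, and 47.6, 53.6 and 73.8 in FL libraries. The 4 libraries of the Tie2-Cre set were the highest there, also in lists of equal length. The strongest region of the window, chr11:87852748-87853932, lay near Mks1 and stood at 82.4, 70.2 and 90.8 in KO, 93.1 and 89.5 in 4S-A, and 78.0, 46.1 and 93.8 in FL libraries. FL 2 was the lowest there, also in lists of equal length, and the groups overlapped.

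**Figure D3:**
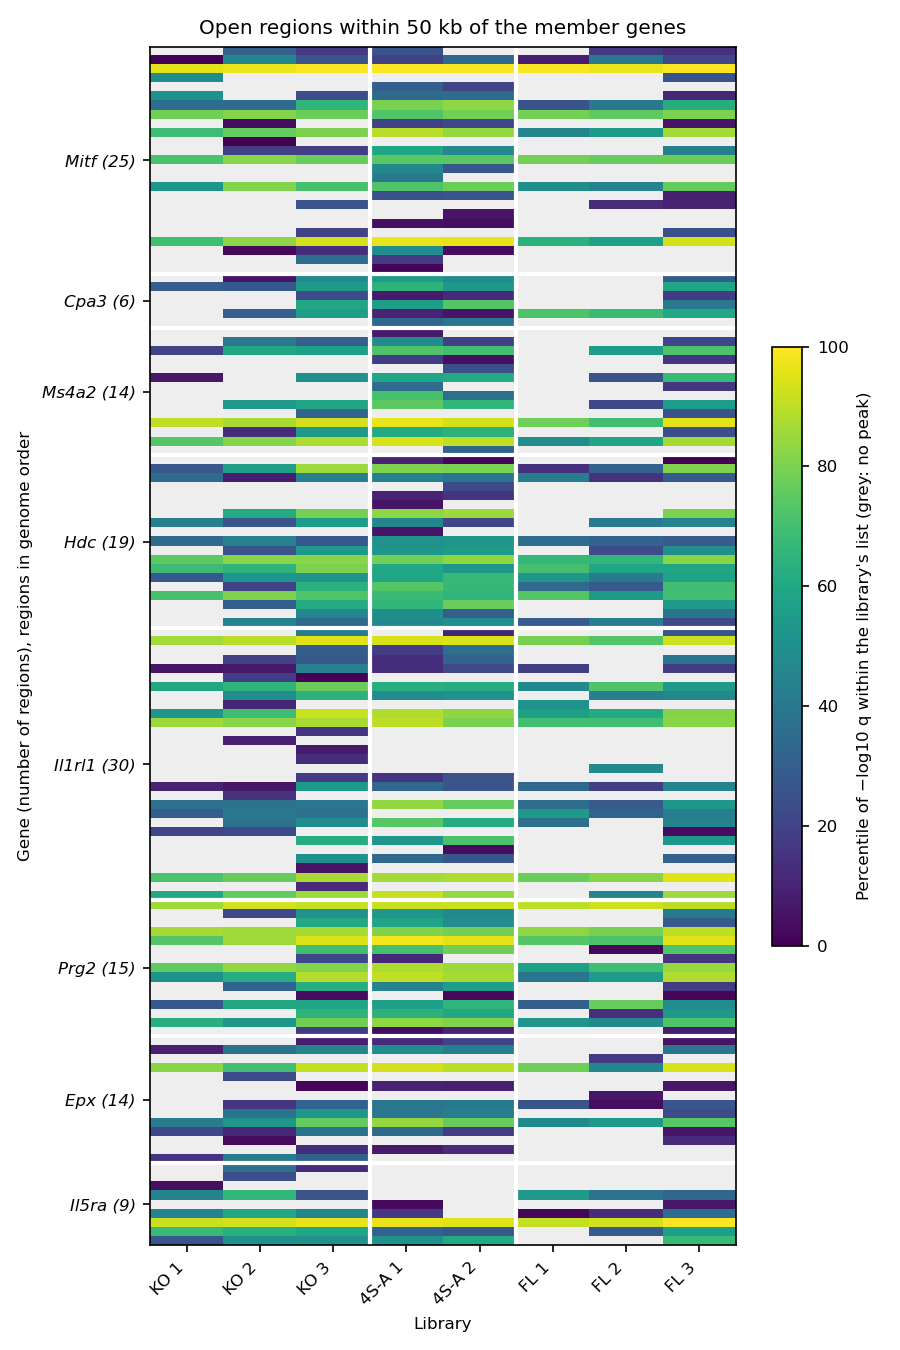
Percentile of −log10 q within each library's list (color, grey for no peak) of the 132 regions (rows, in genome order within each gene, with the number of regions beside the gene) in the 8 libraries (columns). Of the 132 regions 34 run through all 8 columns, and grey is most common in KO 1, FL 1 and FL 2, which held 52, 44 and 56 regions.

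Libraries held 52, 78 and 97 of the 132 regions in KO, 99 and 95 in 4S-A, and 44, 56 and 93 in FL. The 4 longest lists, those of the Tie2-Cre set, held the most. As a share of its own list, peaks in these windows made up 0.104% ± 0.00813 in KO (SD, n = 3), 0.101% ± 0.00353 in 4S-A (SD, n = 2) and 0.101% ± 0.00925 in FL libraries (SD, n = 3). In lists of equal length, set by the shortest, the numbers were 53 ± 5.57 in KO, 52.5 ± 2.12 in 4S-A and 49 ± 4.58 in FL libraries. The differences between groups were smaller than the SD of the KO and of the FL libraries in both measures. In lists of equal length the 4S-A and FL means differed by more than the 4S-A SD of 2.12, which rests on 2 libraries.

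How widely the regions were shared between libraries was close to the figures for the genome. All 8 libraries held 34 of the 132 regions, or 25.8%, against 24.1% of all regions, and 24, or 18.2%, were in a single library, against 23.5%. Inside the genes 11 of 44 regions were in all 8 libraries, and outside them 23 of 88. A member gene was the nearest gene for 62 regions, and another gene was nearer to the other 70. The median over the regions of their mean percentile was 37.1, against 32.2 over all regions, and the median window held 14 regions, against 13 for all protein-coding genes. The window is a fixed limit, and for Il1rl1 the last summit inside lay 49997 bases from the gene and the first outside 50001 bases.

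**Figure D4:**
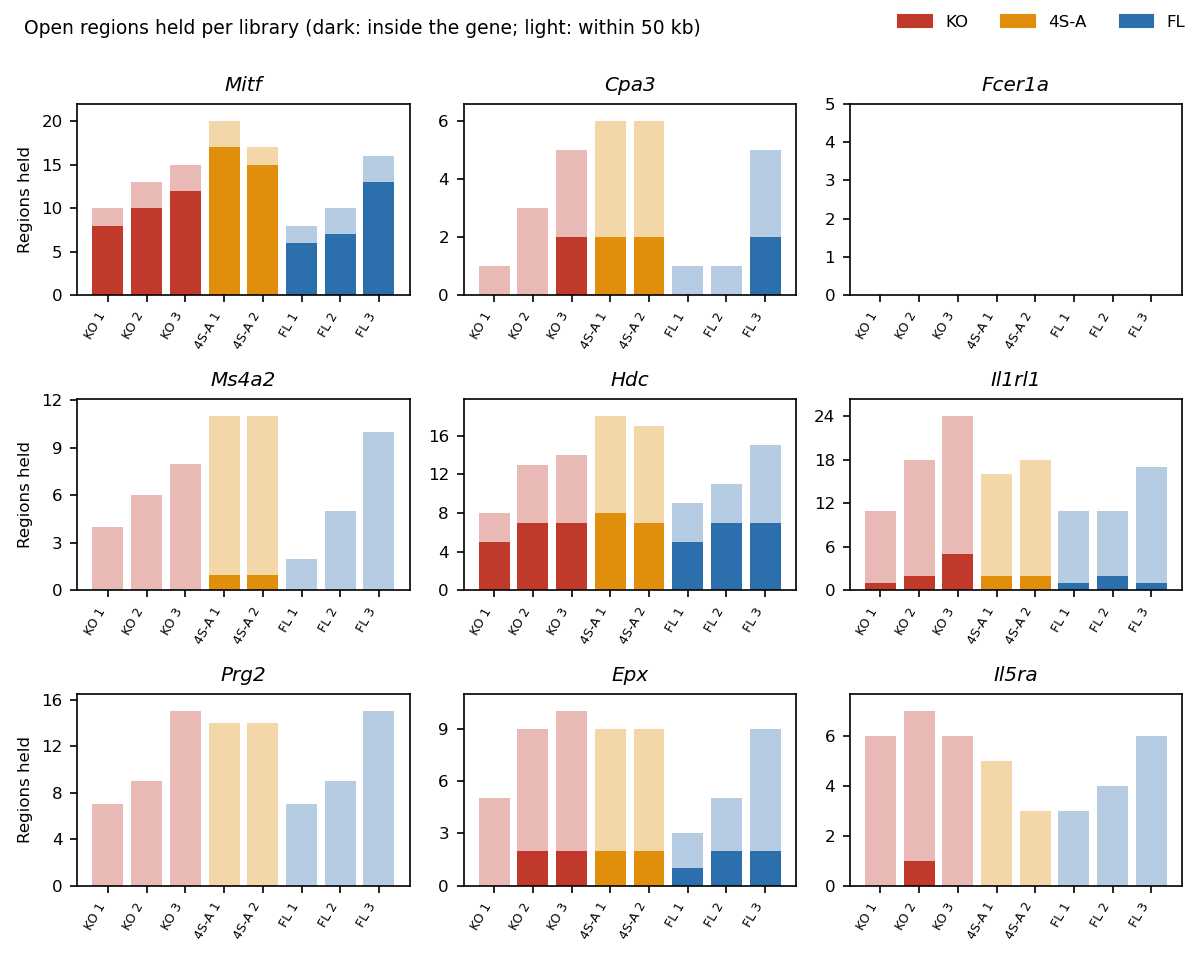
Number of regions held by each library (y axis, each gene on its own scale from 0) around the 9 genes, with regions inside the gene dark and those within 50 kb of it light. Fcer1a has none in any library, Prg2 has none inside the gene, and Ms4a2 has 1 inside, in the 4S-A libraries alone.

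KO was first compared with FL over all 6 libraries. A region was called gained where all KO and no FL libraries held it, and lost where all FL and no KO libraries did. In this and the following comparisons, regions are named in the order of their mean percentile over all libraries that held them, inside or outside the comparison. Of the 47 regions present in each KO library 1 was gained, or 2.13% with an exact 95% interval of 0.0539 to 11.3, against 0.754% of all regions tested. It was chr11:87898513-87898912, 23217 bases outside Epx and 4831 bases from the olfactory receptor gene Olfr463. It stood at 14.8, 42.2 and 31.0 in KO libraries, and no 4S-A or FL library held it. This call ended in lists of equal length, where KO 3 lacked the region and chr11:87816990-87817549, also in the Epx window, was called in its place, and with a 10 kb window, which gave 0. None of the 41 regions present in each FL library was lost, which allows a share of up to 8.60%, against 0.214% of all regions. With 3 against 3 libraries even a full separation has an exact two-sided permutation p of 0.1, so no single region can pass 0.05. Without KO 1, 4 of 69 regions were gained, against 2.42% of all regions, and without FL 3, 5 of 47, against 10.7% of all. Lost regions stayed at 0 without any 1 library.

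Ranks were then compared in the lists of equal length, where 29 regions were held by all 6 libraries. The KO mean was above the FL mean in 18 of these and below it in 11. The matching share over all regions was not computed, so this count has no background and is not read as a shift. The median difference was 2.38 percentile points, with a range of −16.7 to 13.6, against −0.164 over all 30257 regions held by all 6. In 1 region each KO library ranked above each FL library, against 3.09% of all regions, and in 1 each KO library ranked below, against 3.76%. Both lay in the Il1rl1 window. The higher one, chr1:40409869-40410482 inside Il1rl1, stood at 83.9, 74.4 and 77.0 in KO and at 69.8, 67.2 and 68.6 in FL libraries, or 78.5 ± 4.92 and 68.6 ± 1.31 (SD, n = 3 each). The difference was 9.88 points, made up of 10.6 inside the Mx1-Cre set and 8.36 inside the Tie2-Cre set. The lower one, chr1:40501030-40502379 near Il18r1, stood at 68.9, 66.7 and 77.2 in KO and at 77.5, 80.5 and 91.4 in FL libraries, or 70.9 ± 5.55 and 83.1 ± 7.34 (SD, n = 3 each). That difference was −12.2 points, with −11.2 and −14.2 inside the 2 sets. At 1 of 29 in each direction, the genes were close to the share of all regions. The lower call rests on 77.2 in KO 3 against 77.5 in FL 1, and it ended (0 regions) with lists as deposited, with regions built from summits and with a 10 kb window. With lists as deposited the higher call also ended, with KO 2 at 82.2 below FL 3 at 82.4. The 1 region ranked higher there was another one, chr6:106760839-106761423 in the Il5ra window. It stood at 44.8, 59.5 and 45.9 in KO and at 1.84, 12.5 and 36.3 in FL libraries. In lists of equal length FL 3 had no peak in it. Without FL 3, 7 of 30 ranked higher, against 12.6% of all regions, and without KO 3, 4 of 30 ranked lower, against 10.98%.

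Inside the Mx1-Cre set, 6 of the 48 regions held by KO 1 and KO 2 were absent from FL 1 and FL 2, or 12.5%, against 13.5% of all regions. The 6 lay in the windows of Epx (3), Cpa3, Il1rl1 and Il5ra, and none was inside a gene. First came chr6:106793029-106794801 near Crbn in the Il5ra window, at 26.8 and 50.7 in KO 1 and KO 2, and chr3:20198970-20199673 near Cpa3, at 29.2 and 27.3. The third was chr11:87816990-87817549 in the Epx window, at 8.82 and 37.5. FL 3 held all of these 3, at 67.6, 59.3 and 39.3. None of 41 regions was lost in the Mx1-Cre set, against 2.07% of all regions. Without KO 1, 26 of 78 were gained, against 29.0% of all regions, and without FL 2, 10 of 48, against 21.4%. Without KO 2, 4 of 41 were lost, against 9.02% of all, and without FL 1, 6 of 56, against 13.0%.

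In the Tie2-Cre set KO 3 and FL 3 are single libraries, and the comparison has no replicate check. KO 3 held 13 of its 97 regions without FL 3, or 13.4%, against 15.3% of all regions. Of these 13, 8 lay in the Il1rl1 window and 5 were in no other library. The first by mean percentile were the Epx region gained over all 6 libraries, chr1:40359777-40360053 near Il1rl2, at 29.5 in KO 3, and chr6:98005620-98005895 in Mitf, at 35.8. FL 3 held 9 of its 93 regions without KO 3, or 9.68%, against 14.4% of all regions, and 3 of these were inside a gene. The first were chr6:97814228-97814503 in Mitf, at 25.4 in FL 3, chr19:11613130-11613447 near Ms4a2, at 16.1, and chr6:97867288-97867521 in Mitf, at 8.83. The last of these ranks by its percentiles in 4S-A libraries, 24.8 and 26.9, and other regions of the 9 stood above it in FL 3.

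The serine mutant 4S-A could be compared with FL 3, a single library, and with FL 3 and KO 3 together. Both 4S-A libraries held 10 of 88 regions that FL 3 lacked, or 11.4%, against 16.4% of all regions, and FL 3 held 8 of 93 that both lacked, or 8.60%, against 11.7%. When KO 3 had to side with FL 3, 6 of 88 were gained, or 6.82%, against 10.8%, and 5 of 84 lost, or 5.95%, against 5.16%. The first gained region was the one inside Ms4a2 given above. It was followed by chr6:97863361-97863630 inside Mitf, at 47.0 and 27.6 in 4S-A libraries, and by chr3:20279429-20279752 in the Cpa3 window near Cpb1, at 33.5 and 39.4. None of these 3 had a peak in any KO or FL library of either set. In lists of equal length the gains against FL 3 and KO 3 were 1, and none of these 3 was still called: 4S-A 1 alone held the Ms4a2 region, and no library held the other two. With 2 4S-A libraries against 1 or 2 others, the spread between libraries is hardly sampled. Against FL 3 alone, 16 of 99 were gained without 4S-A 2, against 24.3% of all regions, and 13 of 93 were lost without 4S-A 1, against 18.8%. Against FL 3 and KO 3, gains were 11 of 95 without 4S-A 1 and 11 of 99 without 4S-A 2, against 14.2% and 17.3% of all. They were 10 of 88 without FL 3 and 10 of 88 without KO 3, against 15.0% and 16.4%. Losses were 8 of 84 without 4S-A 1, against 10.7% of all regions, 8 of 93 without KO 3, against 11.7%, and 13 of 97 without FL 3, against 10.9%.

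The first lost region, ranked over all libraries, was the one 1478 bases upstream of the Il5ra start, at 25.7 in KO 3 and 33.6 in FL 3. Next came chr1:40475724-40476118 near Il18r1 in the Il1rl1 window, which stood at 30.0, 40.6 and 37.2 in KO and 53.7, 31.6 and 42.9 in FL libraries, with no peak in 4S-A. In KO 3 and FL 3 it ranked above the Il5ra region. The third was chr19:11640265-11640489 near Ms4a3, at 32.2 in KO 3 and 25.9 in FL 3. The first 2 were the regions that all 6 KO and FL libraries held and both 4S-A libraries lacked, 2 of 37, against 1.36% of all regions. In lists of equal length no region of the 29 held by all 6 was missing from both 4S-A libraries, against 3.63% of all, because KO 3 and FL 3 no longer held these 2. In the full lists of KO 3 and FL 3 these 2 regions stood at 25.7 to 42.9.

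Presence was also compared between the sets. Of the 74 regions held by all 4 libraries of the Tie2-Cre set, 9 were missing from all 4 of the Mx1-Cre set, or 12.2%, against 15.9% of all regions. They lay in the windows of Cpa3, Epx, Il1rl1 and Prg2 (2 each) and Hdc. None of the 37 held by the whole Mx1-Cre set was missing from the whole Tie2-Cre set, which allows up to 9.49%, against 0.301% of all. Set, Cre driver and list length cannot be told apart here.

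In the other gene lists, KO against FL over 3 against 3 libraries likewise lost no region. Gains are set beside 0.754% of all regions, and differences between lists were not tested. Other mast cell, basophil and eosinophil genes gained 3 of 206, 1 each near Cd63, Cd200r3 and the neighbours Il4 and Il13. Neutrophil granule genes gained 1 of 88, near Mpo, and the progenitor markers 1 of 85, near Csf3r. Endothelial markers gained 3 of 47, near Esam, Flt1 and Pecam1. Lymphoid markers gained 0 of 68 and erythroid markers 0 of 53. The 3 endothelial regions share the call of the Epx region, at percentiles of 4.76 to 58.2 in KO libraries, and their part in the results was not tested.

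By a likeness of profile, the share of each library's list that falls in the window, the genes closest to Il1rl1 were Cyb561a3 (Pearson's r = 0.968), Zfp472 and Zfp952 (0.932 each). This r is over 8 libraries and was the highest among 13908 genes with 10 or more regions, so it is a description of these lists.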

How the data were processed

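ATAC-seq was available for 3 KO, 2 4S-A and 3 FL libraries. Per the submitters' processing notes, which give neither role nor order, the tools were MACS2, featureCounts, Picard, Bowtie2 2.2.9 and Trim Galore 0.4.4, with mm10 as the assembly. Parameters of peak calling are not given in the sources used here. Peaks were called for each library on its own, since the authors deposited a separate narrowPeak list for each. Each peak has a score, a fold enrichment (a ratio at the summit), a −log10 p and a −log10 q, all as deposited by the authors, and none is scaled between libraries. Nearly all scores equalled 10 times the −log10 q, truncated (621571 of 621859 peaks). The lowest −log10 q was 1.30 to 1.41. Read depth is unknown.

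Peaks on chromosomes 1 to 19 and X were merged over the libraries at an overlap of 1 bp or more. Genes, starts and bases came from RefSeq tables of GRCm38.p6. Shares carry exact Clopper-Pearson 95% intervals, which cover counting error only. Python 3.11.15, pandas 2.3.3, numpy 2.4.6 and scipy 1.17.1 were used, and the calls were tested on simulated data. No fit across regions was made, since the files give no counts.

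The 9 genes and all lists were chosen with earlier results of these data known. Named regions were each gene's strongest, those within 1 kb of its start, all gained or lost over 3 against 3, and up to 3 per direction elsewhere by mean percentile over all libraries with a peak. Those of Mitf away from its first start, of Il1rl1 at its 5′ end and in the neighbouring receptor genes, and of Cpa3, Hdc, Prg2 and Epx beyond this rule were chosen after their values were seen, as were the examples among the other genes. Of the other mast cell, basophil and eosinophil genes, 40 of 41 matched the table. The alternatives were equal-length lists, a −log10 q of at least 2, regions built from summits 250 bp or less apart, a window of 10 kb, leaving out Mitf, ranking by fold enrichment, and leaving out each library.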

Additional observations from a re-analysis of the deposited data

Results flagged for a closer look

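In 8 of the 29 regions held by all KO and FL libraries in lists of equal length, every KO library differed from every FL library one way inside the Mx1-Cre set and KO 3 differed from FL 3 the other way in the Tie2-Cre set. Over all 30257 such regions the share was 23.4%. The difference between sets was not tested, and the Tie2-Cre value rests on 1 library per group. Inside Mitf, KO minus FL was 17.4 percentile points (Mx1-Cre set) against −10.7 (Tie2-Cre set) at chr6:97829036-97829931. At chr6:97995534-97996385 it was 11.7 and −0.380, and at the first start, chr6:97806728-97807698, it was −2.17 and 0.00194. The region chr2:126601938-126602822 in Hdc gave 8.24 and −0.763.

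At the 5′ end of Il1rl1, chr1:40404440-40405176, the values, in the same order of sets, were −5.53 and 17.4. Upstream of Epx, chr11:87881696-87882298 gave −14.6 and 3.87. Next to Ms4a3 in the Ms4a2 window, chr19:11640633-11641295 gave 13.1 and −4.85, and at Prg3 in the Prg2 window, chr2:84987747-84988651 gave 13.0 and −6.92.

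Presence was opposite in 1 of the 132 regions, against 0.522% of all regions. It was chr1:40480081-40480341 near Il18r1, held by KO 1 at 20.9 and KO 2 at 22.6, and by FL 3 at 3.32, with a mean of 15.6 over these libraries. This difference was not tested either.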

How the results depend on the processing

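Of 84 values under alternatives that kept all libraries, 53 stayed within 1.5 times (or 1 SD) of the value reported. Counts below are regions. In equal-length lists the Mx1-Cre set gained 3 and lost 1, KO 3 lost 2 against FL 3, 4S-A gained 6 and lost 5 against FL 3, and gained 1 against FL 3 and KO 3. The 1 region gained over 3 against 3 was then another one, chr11:87816990-87817549 in the Epx window. With lists cut to equal length inside each comparison, an alternative chosen after seeing the data, the Mx1-Cre set gained 3 and lost 1, and 4S-A gained 6 and lost 13 against FL 3. Regions built from summits gave 1 lost in the Mx1-Cre set and 0 ranked lower. Ranks in the lists as deposited gave 0 lower and 1 higher, which was then another region, chr6:106760839-106761423 in the Il5ra window.

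A 10 kb window left 0 gained over 3 against 3, 1 gained in the Mx1-Cre set, 6 gained and 5 lost by KO 3, 6 gained and 4 lost by 4S-A against FL 3, 3 lost against FL 3 and KO 3, and 0 ranked lower, with list shares of 0.0446% in KO, 0.0461% in 4S-A and 0.0459% in FL. Without Mitf, 4S-A gained 6 and lost 5 against FL 3 and gained 3 and lost 3 against FL 3 and KO 3, with list shares of 0.0865% in KO, 0.0824% in 4S-A and 0.0844% in FL.

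Leaving out 1 library at a time moved counts most. Gains over 3 against 3 ranged over 1 to 5 (4 without KO 1, 5 without FL 3) and losses stayed at 0. In the Mx1-Cre set gains ranged over 7 to 26 (26 without KO 1, 10 without FL 2) and losses over 0 to 6 (4 without KO 2, 6 without FL 1). Against FL 3, 4S-A gains ranged over 15 to 16 (16 without 4S-A 2) and losses over 10 to 13 (13 without 4S-A 1). Against FL 3 and KO 3, gains ranged over 10 to 11 (all 4 omissions) and losses over 7 to 13 (8 without 4S-A 1 or KO 3, 13 without FL 3). Regions ranked higher ranged over 1 to 7 (1 without KO 1, 2 or 3 without KO 2, KO 3, FL 1 or FL 2, 7 without FL 3) and lower over 1 to 4 (1 without FL 2, 2 without KO 1, KO 2 or FL 1, 3 without FL 3, 4 without KO 3). Fewer libraries make each call easier by construction, and the share over all regions rose as well, to 29.0% in the setting with 26 gains. No paired analysis was possible because the counts come from no test and the replicate numbers do not mark shared animals. Depth is unknown, so a region without a peak may lie under the calling limit of its library.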
